A study of Danio rerio with 6 samples.

Results

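The genes and transcripts described here are those whose array probes gave signal in wild-type zebrafish embryos at 4 dpf (days post fertilisation) and none clearly above background in *vhl* mutants. A probe was chosen by its flags and its level together. It had to be well above background on all 3 wild-type arrays and on 0 of the 3 *vhl* mutant arrays, and its mean level had to be at least 0.5 higher in wild-type. A level is log2 of the processed signal plus 50, quantile-normalised over the 6 arrays. By this rule 170 of 41031 zebrafish probes (0.414%) were taken, out of 335 (0.816%) that had the pattern of flags at any difference. Because the rule reads both groups, the differences between wild-type and *vhl* mutants given for these probes are a description, with no test.

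The wild-type group was 3 pools of 30 embryos (replicates 2, 3 and 4), and the *vhl* mutant group 3 pools of 30 embryos (replicates 1, 3 and 4). All pools were of the TL/LWT mix, raised to 4 dpf, and the labels give no sex or clutch. The methods describe the mutation as *vhl* hu2117, homozygous in the mutants, in a line crossed to a *phd3*:EGFP reporter of the hypoxic response, and the labels do not say whether the array embryos carried the reporter. Total RNA (400 ng per pool) was labelled with Cy3 and read on a one-colour Agilent array.

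The Vhl protein marks the α subunits of the Hypoxia Inducible Factor (HIF) for destruction when oxygen is present, so embryos without it run a hypoxic response in normal oxygen. HIF is best known as an activator of genes for glycolysis, red cell production and vessel growth. The flag used here asks whether a spot is brighter than its background by a set multiple of the background noise, so a probe without the flag is dim but is not shown to be silent. In RNA of whole pooled embryos, fewer cells of a type and less RNA per cell cannot be told apart.

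Each array held 43803 zebrafish spots, of which 67.2% to 72.4% were well above background, and 0 spots were saturated. All wild-type arrays lay on 1 slide and all *vhl* mutant arrays on another, and 0 slides held both groups, so slide and genotype cannot be told apart. No probe had the symbol *vhl* (0 found), but only 7.70% of all probes have a symbol. The targeted gene could thus not be read by name, and an unnamed probe for it may exist. The HIF target *egln3*, encoding a prolyl hydroxylase that acts on HIF itself, stood at 8.94, 8.71 and 8.90 on the wild-type arrays and at 16.22, 15.83 and 15.58 on the *vhl* mutant arrays. With so few arrays, precision is limited throughout.

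The differences of the 170 probes ran from 0.50 to 4.37 with a median of 0.78, while the median over all 41031 probes was 0.00075. Of the 170, 48 differed by 1 or more, 14 by 2 or more and 8 by 3 or more. On every one of the 170 the lowest wild-type array lay above the highest *vhl* mutant array, by 0.076 at the least and 0.55 at the median. Over all probes, 24.8% had wild-type arrays wholly above *vhl* mutant arrays. The limma fit over all probes called 526 lower in *vhl* mutants (1.28%, adjusted p of 0.01 or less and 2-fold), and 39 of the 170 were among them. With no fold limit and an adjusted p of 0.05 it called 12.9% of all probes lower, and at an unadjusted p under 0.05 19.7% were lower. It called 540 higher (1.32%). Since the rule used the same contrast, nothing about the 170 is read from these counts.

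Just inside the limit of 0.5 lay CUST_4960_PI415677031, CUST_7865_PI415677031 and CUST_5836_PI415676703, with differences of 0.502, 0.504 and 0.505. Just outside it lay CUST_2029_PI415677031, CUST_5437_PI415677031 and CUST_5126_PI415676703, with 0.4997, 0.499 and 0.498. None of these 6 had a symbol. The limit therefore divides probes of almost equal values, and 165 probes with the same flags fall below it.

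**Figure D1:**
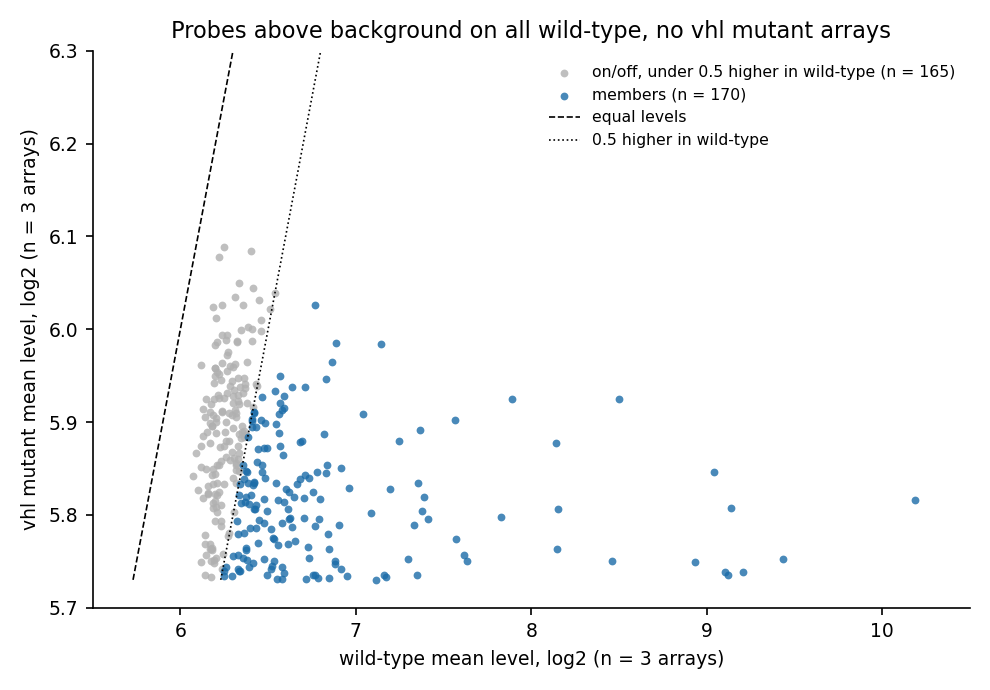
Mean level of each probe on the 3 *vhl* mutant arrays (vertical axis, log2) against its mean level on the 3 wild-type arrays (horizontal axis, log2). Blue points are the 170 probes taken by the rule and grey points the 165 with the same flags and a smaller difference. The *vhl* mutant axis spans less than 1 unit, and most blue points lie between 6 and 7 on the wild-type axis, with 8 above 8.70.

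Most of the 170 were dim in wild-type too. Their mean wild-type level had a median of 6.59, with quartiles of 6.43 and 6.88, and ran from 6.25 to 10.19. The 25855 probes that were on all 3 wild-type arrays had a median of 8.70, and 12.5% of them lay below the median of the 170. In *vhl* mutants the 170 had a median of 5.81, and no single value on a *vhl* mutant array was above 6.13. The lowest level of any probe after normalisation was 5.73. The 9053 probes that were off on all 6 arrays had a median *vhl* mutant level of 5.76, and 46 of the 170 had a *vhl* mutant mean below that.

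A *vhl* mutant value at this floor is a bound, so folds are given as "at least", for this signal and normalisation only. For each probe, the wild-type mean was set against the mean over the *vhl* mutant arrays of the dimmest level called well above background on that array, or of the probe's own value where that was higher. On this scale the 170 probes were at least 1.49-fold lower in *vhl* mutants at the median, with bounds from 1.18-fold to 18.1-fold. The bound reached 2-fold for 35 probes and 4-fold for 13. The added 50 makes these folds smaller than the ratio of the signals. The bounds use the mean wild-type level, without the spread between replicates, and they depend on the processing. Normexp, the background correction that the study names, was run on the median signal with an added 50, which its methods do not give. The whole difference of *zgc:174862* was then 3.93. That is under its bound here, which is 4.18 in log2. The same held for every other named gene except *zgc:171711*, where the difference was 0.61 beside a bound of 0.51. With that exception, the "at least" folds given below for single probes were not reached under normexp with this offset.

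Before normalisation, the median signal of the 170 was 45.5, 47.5 and 49.6 units on wild-type replicates 2, 3 and 4, and 5.76, 6.62 and 6.23 units on *vhl* mutant replicates 1, 3 and 4. The array carries 153 negative control spots, which match no zebrafish transcript. Their 95th percentile was 5.83, 3.42 and 5.66 units on the 3 *vhl* mutant arrays. At or under it lay 86, 57 and 76 of the 170 on *vhl* mutant replicates 1, 3 and 4, against 0 on each wild-type array. As the rule reads the flags of both groups, this contrast is largely set by the choice of probes and is only described. The dimmest of the 170 on any wild-type array had 16.3 units and the brightest on any *vhl* mutant array 21.4 units.

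**Figure D2:**
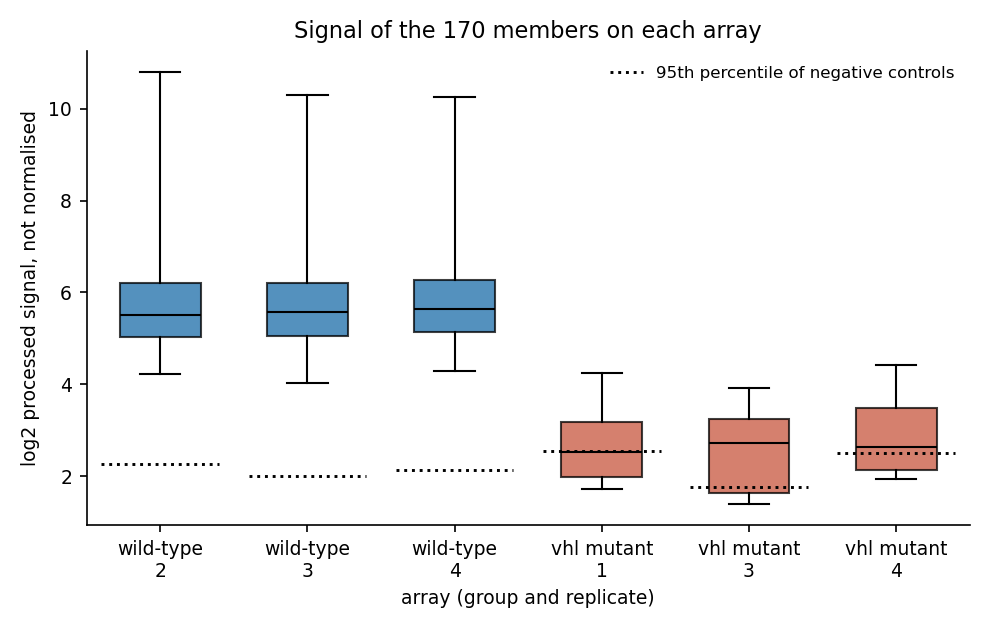
Processed signal of the 170 probes on each array, on a log2 axis and before normalisation. Boxes span the quartiles with the median as a line, whiskers reach the lowest and highest probe, and dotted lines mark the 95th percentile of the negative control spots. Every wild-type box and whisker lies above its dotted line, and those of the *vhl* mutant arrays run through the boxes.

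A weaker flag of the scanner software asks whether a spot is positive and significantly above background, without the margin for noise. The rule did not read this flag. In *vhl* mutants, 71 of the 170 carried it on all 3 arrays (41.8%), 36 on 2 arrays, 26 on 1 array and 37 on none (21.8%). Of the 9053 probes off on all 6 arrays, 21.3% carried it on all 3 *vhl* mutant arrays and 37.6% on none. By this flag 71 of the probes were thus positive on every *vhl* mutant array and 37 on none, which does not show the 37 to be silent.

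The named gene with the largest difference was *zgc:174862*, which has no assigned function in the names used. Its levels were 10.61, 10.25 and 9.69 on wild-type replicates 2, 3 and 4, and 5.73, 5.91 and 5.81 on *vhl* mutant replicates 1, 3 and 4. Its difference of 4.37 was the largest of the 170, and it was at least 18.1-fold lower in *vhl* mutants. Before normalisation its signal was 1769, 1263 and 890 units in wild-type and 3.50, 11.5 and 9.23 units in *vhl* mutants.

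The gene listed as *LOC100150527* is described as similar to soluble aconitase 1, the cytosolic enzyme that becomes an iron regulatory protein when it loses its iron-sulphur cluster. It stood at 8.95, 9.24 and 10.12 in wild-type and at 5.77, 5.74 and 5.75 in *vhl* mutants, and was at least 10.74-fold lower there. The weaker flag was absent on every *vhl* mutant array. Its wild-type arrays spread more than most, with an SD of 0.61 (n = 3), and the gap between the groups was 3.18.

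The probe of *zgc:73185* reads the gene now called *ciao2a*, a part of the cytosolic machinery that inserts iron-sulphur clusters, which in human cells acts on aconitase 1. Its levels were 9.04, 8.63 and 9.14 in wild-type and 5.76, 5.74 and 5.74 in *vhl* mutants, at least 7.60-fold lower. The weaker flag was absent here too. Of 3 other named probes for iron-sulphur assembly genes, each was well above background on all 6 arrays. The probe of *ciao1*, another part of the same cytosolic machinery, had 8.79 ± 0.29 in wild-type, beside 7.26 ± 0.20 in *vhl* mutants (± is the SD over 3 arrays). The scaffold gene *iscua*, listed as *si:ch211-191d15.2*, had 11.69 ± 0.05 and 10.69 ± 0.15. Both were among the 526 probes that limma called lower. The level of *nubpl*, a mitochondrial assembly factor, was 9.09 ± 0.18 and 8.69 ± 0.04 and was not called. At an unadjusted p under 0.05 all 3 were lower, where 19.7% of all probes were. These relatives were looked up after the members were known.

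The gene *rplp2* encodes a protein of the stalk of the large ribosomal subunit, which all cells use. Its probe stood at 7.86, 10.01 and 9.76 on wild-type replicates 2, 3 and 4, and at 5.74 on all 3 *vhl* mutant arrays. The bound was at least 9.20-fold on the mean of the wild-type arrays, and limma did not call the probe lower. Wild-type replicate 2 was well below the other replicates, and the wild-type SD of 1.18 was the largest of the 170. The probe was made from an expressed sequence tag, and no other probe carried this symbol. As only 7.70% of all probes have a symbol, other probes of the gene may go unnamed. Whether all *rplp2* transcripts behaved alike was not tested.

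The gene *capn8* encodes a calpain, a calcium-dependent cysteine protease. Its levels were 8.69, 9.37 and 9.30 in wild-type and 5.74, 5.73 and 5.74 in *vhl* mutants, at least 8.65-fold lower, without the weaker flag on any *vhl* mutant array. The next protein-coding gene along the chromosome in the RefSeq order is another calpain, *capn2l*. It went the opposite way, from 6.43, 5.83 and 5.73 in wild-type to 10.60, 11.38 and 11.27 in *vhl* mutants, and limma called it higher. The calpain *capn1b*, 2 genes to the other side, had 8.52 ± 0.06 in wild-type and 8.06 ± 0.19 in *vhl* mutants (± is the SD over 3 arrays) and was not called. Of the 6 calpain or calpain subunit probes with a symbol, 4 were on all 6 arrays. Of the 5 other than *capn8*, 3 were lower at an unadjusted p under 0.05, beside 19.7% of all probes, and 1 was higher. The higher one, *capn2l*, was named by the study's table of changed genes. How far the *capn8* and *capn2l* probes read each other's transcript was not tested.

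The gene *rccd1* encodes a protein with the repeats of the chromatin factor RCC1. Its levels were 8.13, 8.51 and 8.75 in wild-type and 5.76, 5.74 and 5.75 in *vhl* mutants, at least 5.47-fold lower and without the weaker flag. Another gene with such repeats, *zgc:163136* (now *herc56.3*), missed the rule by 1 array. It fell from 8.79 ± 0.25 to 5.96 ± 0.04 (SD over 3 arrays), was called lower by limma, and was still well above background on that *vhl* mutant array.

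Among the named genes *vstm4a*, *ccdc127b* and *cab39* also differed by more than 2. The gene *vstm4a*, encoding a transmembrane protein with an immunoglobulin-like V-set domain, had 8.59, 8.41 and 8.50 in wild-type and 5.93, 5.80 and 6.05 in *vhl* mutants. The coiled-coil gene *ccdc127b* had 7.92, 8.51 and 8.04 against 5.86, 5.77 and 5.79. The gene *cab39* had 7.66, 8.35 and 8.42 against 5.92, 5.95 and 5.77. Their bounds were at least 5.56-fold, 4.43-fold and 4.39-fold, and all of them kept the weaker flag on all 3 *vhl* mutant arrays. In mammals Cab39 is the scaffold that holds the kinase LKB1 with its partner STRAD. The symbol *cab39* comes from the study's table, and since RefSeq also lists it as an older name of *cab39l1*, it is uncertain which of these genes the probe reads. The zebrafish gene for that partner, *strada*, had 11.47 ± 0.06 in wild-type and 10.87 ± 0.15 in *vhl* mutants, lower at an unadjusted p under 0.05 but not called.

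The 5 largest differences include 1 probe without a symbol, CUST_3746_PI415677031. It stood at 9.04, 8.77 and 9.51 in wild-type and at 5.74 on all 3 *vhl* mutant arrays, at least 8.56-fold lower. Its sequence comes from a UniGene cluster, a group of overlapping transcript fragments, and its gene is not named here. In all, 5 of the 14 probes that differed by 2 or more had no symbol.

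**Figure D3:**
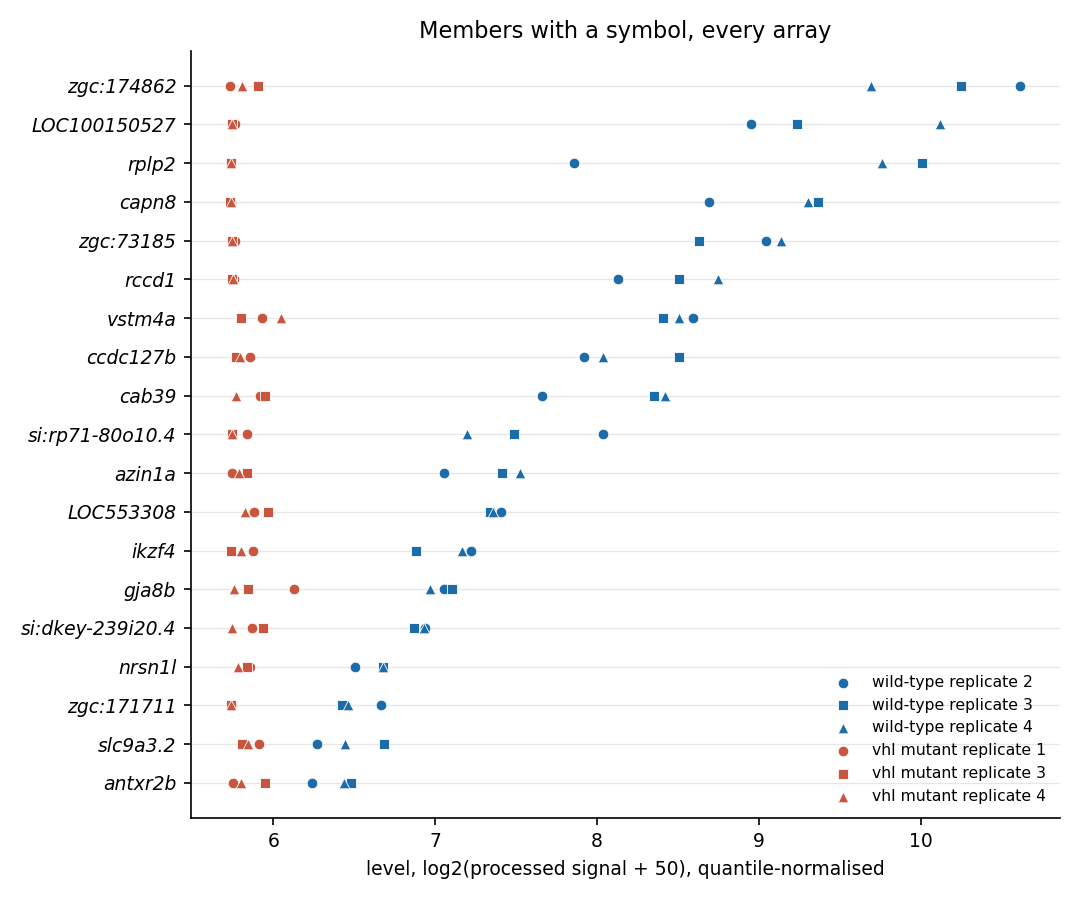
Level of each of the 19 named genes on each array, as log2 of the processed signal plus 50 after quantile normalisation. Blue symbols are wild-type and red symbols *vhl* mutant arrays, with 1 marker shape per replicate. Red symbols sit between 5.73 and 6.13 in every row, and rows run from the largest difference (4.37, *zgc:174862*) to the smallest (0.55, *antxr2b*).

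Differences between 1 and 2 were found for 6 named genes. Of these, *si:rp71-80o10.4*, without an assigned function, had 8.04, 7.49 and 7.20 in wild-type and 5.84, 5.74 and 5.74 in *vhl* mutants, at least 2.96-fold lower. The gene *azin1a* encodes an antizyme inhibitor, which binds antizyme and so spares ornithine decarboxylase, the entry enzyme of polyamine synthesis. Its levels were 7.05, 7.41 and 7.53 against 5.75, 5.84 and 5.78, at least 2.50-fold lower. The gene for antizyme itself, *oaz1a*, had 15.57 ± 0.04 in wild-type and 15.08 ± 0.13 in *vhl* mutants (± is the SD over 3 arrays) and was lower at an unadjusted p under 0.05 but not called.

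The uncharacterised *LOC553308* was among the tightest, at 7.40, 7.34 and 7.36 in wild-type (SD 0.034) and 5.88, 5.97 and 5.82 in *vhl* mutants. The gene *ikzf4* encodes a zinc-finger transcription factor of the Ikaros family. It stood at 7.22, 6.88 and 7.17 against 5.87, 5.74 and 5.80. Its relative *ikzf2*, listed as *si:zfos-1425h8.1*, was at 5.76 ± 0.03 in wild-type and 5.74 ± 0.0030 in *vhl* mutants and was well above background on no array. The bounds of *LOC553308* and *ikzf4* were at least 2.55-fold and 2.11-fold.

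The gene *gja8b* encodes a gap junction protein (connexin) of the eye lens. Its levels were 7.05, 7.10 and 6.97 in wild-type and 6.13, 5.84 and 5.76 in *vhl* mutants, at least 2.02-fold lower. Its paralogue *gja8a*, also a lens connexin, had 7.37, 7.35 and 7.18 against 7.14, 6.62 and 6.18. The groups of *gja8a* did not overlap by 0.047, and limma did not call it. Of 42 listed lens genes, most of them crystallins, which encode the main proteins of the lens, 8 had a probe. All 8 were on all 6 arrays, with 1 called lower, 1 called higher and a median difference of -0.14. The part of these markers in the result for *gja8b* was not tested.

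Of 12 named connexin probes, *gja8b* included, 5 were on all 6 arrays. Of the 11 others limma called 2 higher and 0 lower, and 3 were lower at an unadjusted p under 0.05, a share near the 19.7% of all probes. The opposite case was *gjb1a*, which rose from 5.74, 5.74 and 5.85 in wild-type, on 0 arrays above background, to 8.25, 8.92 and 9.23 in *vhl* mutants. The other called higher, *gja9b* (listed as *cx52.9*), was on all 6 arrays and differed by -1.70, which is higher in *vhl* mutants.

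The last gene of the 1 to 2 range was *si:dkey-239i20.4*, without an assigned function, at 6.94, 6.87 and 6.93 in wild-type and 5.87, 5.94 and 5.75 in *vhl* mutants. Differences below 1 were found for 4 named genes. The gene *nrsn1l*, related to the neurensins of neurons, had 6.51, 6.68 and 6.68 against 5.86, 5.84 and 5.78. The gene *zgc:171711*, now *shfl*, whose mammalian counterpart blocks ribosomal frameshifting by viruses, had 6.67, 6.42 and 6.46 against 5.75, 5.74 and 5.74. It had no weaker flag on any *vhl* mutant array. Bounds here were at least 1.87-fold, 1.53-fold and 1.42-fold.

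The gene *slc9a3.2* encodes a sodium/hydrogen exchanger of the NHE3 type. It had 6.27, 6.68 and 6.44 in wild-type and 5.91, 5.80 and 5.84 in *vhl* mutants, at least 1.37-fold lower. Its neighbour and paralogue *slc9a3.1* stood at 8.10, 8.05 and 8.33 against 6.97, 8.19 and 7.83, with overlapping groups. Of 9 named probes for exchangers of this family and a regulator of theirs, the 8 other than *slc9a3.2* were on all 6 arrays. Limma called 0 of these 8, and 5 were lower at an unadjusted p under 0.05, beside 19.7% of all probes. As for the other relatives, the named probes lean towards those that differ, so no shift of the family is read from this.

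The gene *antxr2b* encodes an anthrax toxin receptor, which in the animal binds extracellular matrix. It was the named gene nearest to the limit, at 6.24, 6.48 and 6.44 in wild-type and 5.75, 5.95 and 5.80 in *vhl* mutants. The bound was at least 1.297-fold. Its paralogue *antxr2a* was well above background throughout, at 10.10 ± 0.02 in wild-type and 10.35 ± 0.38 in *vhl* mutants (± is the SD over 3 arrays). Of the paralogues *gja8a*, *slc9a3.1* and *antxr2a*, each was thus well above background on all 6 arrays.

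**Figure D4:**
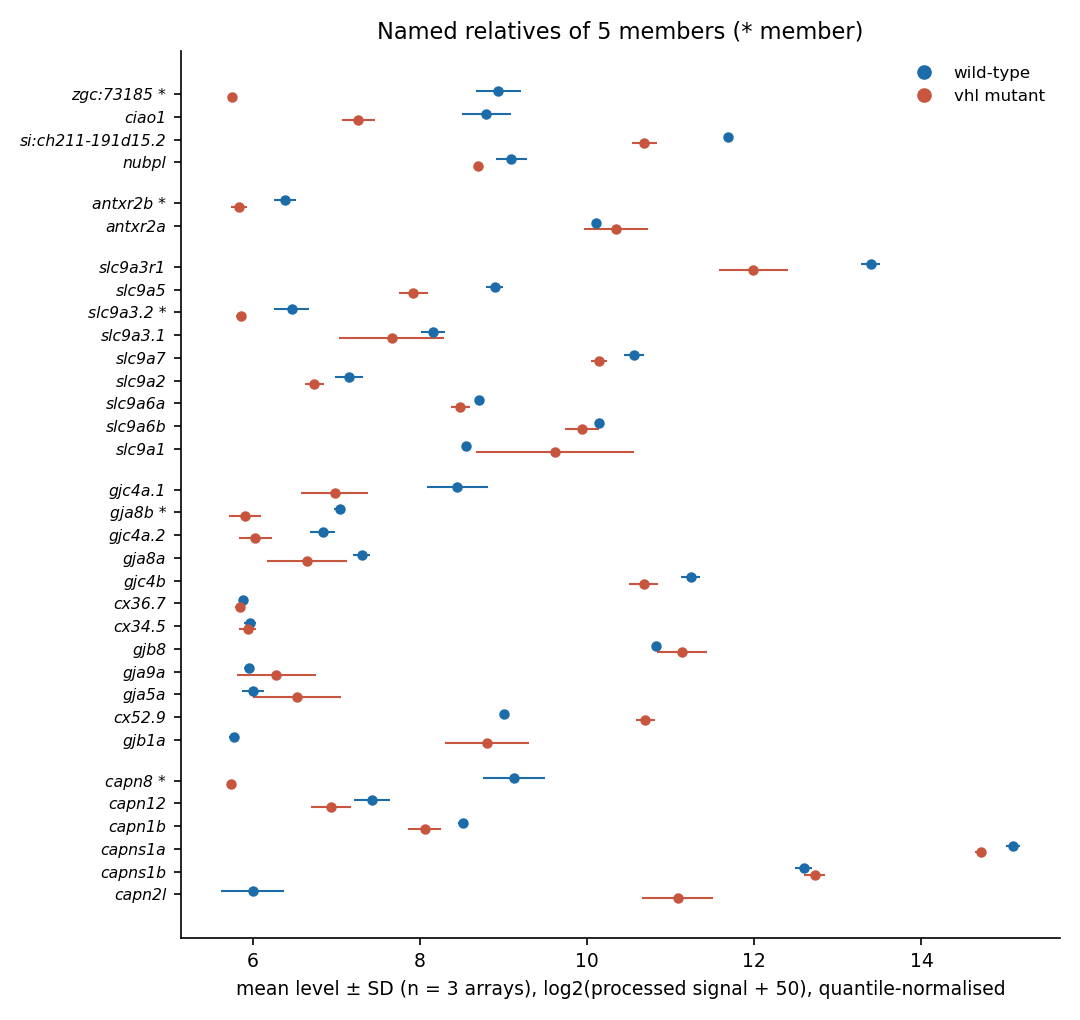
Mean level ± SD (n = 3 arrays per group) of the probes named for relatives of 5 of the genes, in wild-type (blue) and *vhl* mutants (red), with the 5 genes marked by an asterisk. The marked genes end near the floor of the axis in *vhl* mutants, while most relatives stay above it, and *capn2l*, *gjb1a* and *cx52.9* lie to the right in *vhl* mutants.

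By position in the RefSeq annotation, 17 of the named genes could be placed. The closest pair was *si:rp71-80o10.4* and *zgc:174862* on the same chromosome, with 1 protein-coding gene between them. Both were brightest on wild-type replicate 2 and dimmest on replicate 4. The next closest pair, *ciao2a* and *rccd1*, had 34 genes between. Of the 17 placed genes *rplp2* alone shared a chromosome with *vhl* itself, with 167 genes between. Within 10 protein-coding genes on either side of a placed gene lay 47 named probes, belonging to 16 of the genes. Of these probes 36 were on all 6 arrays, 10 were higher by 1 or more in wild-type and 10 higher by 1 or more in *vhl* mutants. The 10 higher in wild-type include *zgc:174862* and *si:rp71-80o10.4* themselves. Only neighbours with a symbol could be counted. Of the 3159 named probes, 648 owe their symbol to a list of genes already found to differ, so the neighbour counts lean towards such probes. No share over all named probes is set beside these counts. No clustering of changed genes around the 17 is therefore read from them.

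The rule does not fix how far the wild-type replicates differ. The SD over the 3 wild-type arrays had a median of 0.16 over the 170, ran from 0.0089 to 1.18, and was over 0.5 for 9. Over the 84 that lay between the quartiles of wild-type level it had a median of 0.15, while the 2509 probes of that level on all 6 arrays had 0.097. These groups were chosen by different flags, and the part of that choice in the difference was not tested. The highest of the 3 wild-type arrays was replicate 2 for 53 probes, replicate 3 for 66 and replicate 4 for 51. Each wild-type pool was thus the highest for some probes. In *vhl* mutants the median SD was 0.045, near the floor of the scale.

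The share of probes lost fell with their brightness. A dim probe loses the flag after a smaller drop than a bright one, so such a fall is built into the flag and is only described. Of the probes on all 3 wild-type arrays with a mean level under 6.5, 8.56% (225 of 2630) were off on all 3 *vhl* mutant arrays, at any difference. The share was 2.38% between 6.5 and 7, 0.485% between 7 and 8, 0.163% between 8 and 9, and 0.0590% (7 of 11856) at 9 and over. The 7 probes of that last class hold *zgc:174862*, *LOC100150527*, *rplp2* and *capn8*, and 3 without a symbol.

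The mirrored rule, on all 3 *vhl* mutant arrays and no wild-type array and at least 0.5 higher in *vhl* mutants, gave 198 probes (0.483%). Their median difference was 0.79, beside 0.78 for the 170, and 66 differed by 1 or more and 24 by 2 or more, beside 48 and 14. By the flags alone, at any difference as in the shares for wild-type above, 13.5% of probes under 6.5 were lost in this direction, 3.13% between 6.5 and 7, 0.799% between 7 and 8, 0.356% between 8 and 9, and 0.0423% (5 of 11812) at 9 and over. The mirrored share of flags was the larger in the 4 lower classes and the smaller in the highest. With the minimum of 0.5, the order under 6.5 turned, at 2.36% for wild-type and 1.89% for *vhl* mutants. These shares share all arrays, and their difference was not tested.

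**Figure D5:**
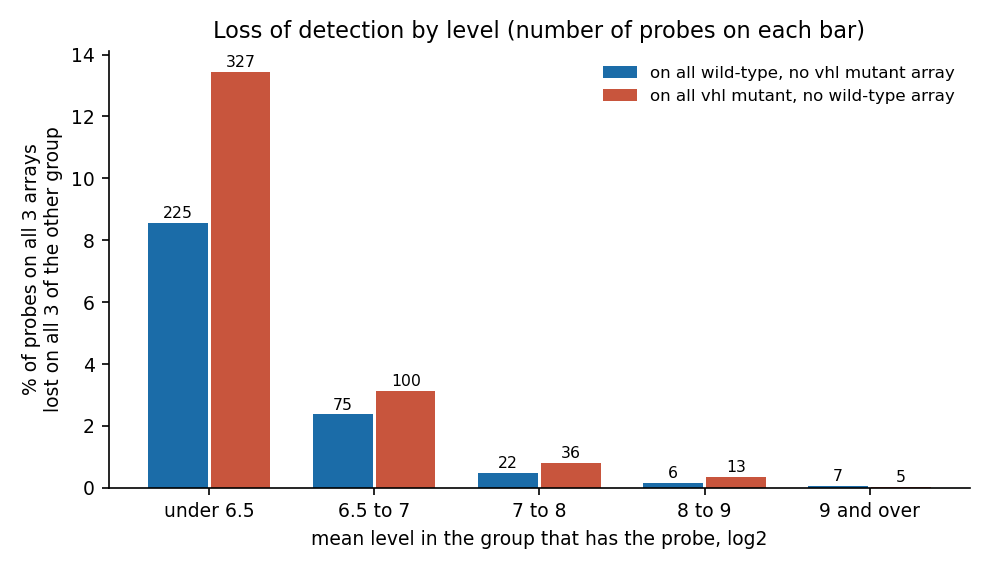
Share of probes, in %, that were well above background on all 3 arrays of a group and on no array of the other, at any difference, by mean level in the group that has them (log2). Blue bars are probes on in wild-type and red bars probes on in *vhl* mutants, with the number of probes on each bar. Both fall from 8.56% and 13.5% under 6.5 to 0.0590% and 0.0423% at 9 and over.

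The sequence a probe was built from, which the rule did not use, is given as shares with no test. Probes built from UniGene clusters made up 35.3% of them (60 probes), 22.1% of all probes and 18.7% of the mirrored set. Full-length cDNA accessions beginning with BC made up 21.2%, beside 22.9% of all probes. Curated RefSeq accessions beginning with NM made up 2.35% (4 probes), beside 4.52%. Sequence tags beginning with CT made up 10.6%, beside 16.4% of all and 24.7% of the mirrored set. A symbol was known for 19 of the 170 (11.2%) and for 7.70% of all probes. As 12 of the 19 symbols come from the study's own table of changed genes, this last comparison leans towards probes that differ.

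As 151 of the 170 have no symbol, only the 19 with one could be matched to gene lists. None of those fell into 14 lists of pathways and cell types (0 of 141 probes found for 565 listed genes), and at a share of 0.414% a list of this size would hold hardly any, so nothing is read from it. The lists cover, among others, HIF targets, photoreceptors, lens, enterocytes, liver, muscle, red cells, neurons and lipid synthesis. Of those 141 probes 125 were on all 6 arrays. Over the lists, limma called 23 probes lower and 21 higher in *vhl* mutants. The samples are labelled as whole embryos, and markers of many organs were present, as 18 of 19 photoreceptor, 9 of 9 muscle, 11 of 11 enterocyte and 11 of 11 liver probes were on all 6 arrays. The innate immune list was the thinnest, with 1 of 5 on all 6. Some of these markers moved with genotype, in both directions. Limma called 8 of the 11 enterocyte probes lower in *vhl* mutants (median difference 1.35). Of the 19 photoreceptor probes it called 6 lower and 1 higher (median difference 1.19). It called 5 of 8 red cell probes higher (median difference -2.17) and 9 of 18 HIF target probes higher (-2.06). Over all probes it called 1.28% lower and 1.32% higher. With so few named probes per list, and symbols that lean towards probes that differ, no loss or gain of a cell type is read from these counts. The part of these markers in the loss of the 170 was not tested.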

How the data were processed

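The deposited files were the scanner output of 6 arrays and 1 series-wide table. The authors read the spots with Agilent Feature Extraction 10.7.3.1, and, per the file headers, the values used are intensities (the processed signal, background-subtracted and detrended within an array, not normalised between arrays). The deposited series table holds the same intensities within 0.496%, with 0 columns that match no sample. The study's methods name limma 3.24.10 with normexp and quantile normalisation. Normexp is tried here as an alternative with an offset of 50, which the methods do not name.

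Control spots (1264 positive, 153 negative) were removed and outlier-flagged spots (15 to 63 per array) set missing. Log2(processed signal + 50) of the spots was quantile-normalised and averaged by probe name. A probe was on, or well above background, where all its spots carried the flag, and off where none did. Groups came from the sample titles. All probes were fitted in R 4.3.3 with limma 3.58.1 (lmFit, eBayes), without covariates. The limits were 0.01, after Benjamini-Hochberg adjustment over 41031 probes, and 2-fold. The study names the same 2 numbers but does not say whether its p-value was adjusted. The fit was tested on simulated data. The pools are called biological replicates by the methods, and p-values measure the spread between them. The offset of 50 understates the change of dim probes.

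The files name no genes. Of 3159 named probes (7.70%), 1752 were named by unversioned accession in a RefSeq table (GRCz12tu, used for names and gene order, with no coordinates given), 648 by the study's table of changed genes and 759 by its full table, used in part. Named in the text are members with a symbol, members of the gene lists, the 5 largest differences, and the probes at the limit. Relatives and neighbours were looked up after these. Members, lists and rules were chosen with earlier results of these data known. Alternatives covered the flag, offset, signal, normalisation, outlier spots, averaging, limits, a replicate block and each array left out. The mean pixel brightness, planned as an alternative, was not used here.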

Additional observations from a re-analysis of the deposited data

How the results depend on the processing

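The rule gave 170 probes. It gave 43 with the weaker detection flag (37 of them among the 170), 335 without a minimum difference, 48 with a minimum of 1, 321 with an offset of 16, 335 with an offset of 0, and 108 with normexp on the median signal. Leaving out 1 array gave 188 to 270, with 270 without *vhl* mutant replicate 1 and 266 without *vhl* mutant replicate 3. Fewer arrays make the rule easier to pass. The other settings gave 118 (75th percentile scaling) to 172.

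The median difference over the 170 was 0.78. It was 1.50 with an offset of 16, 3.08 with an offset of 0, 0.59 with normexp, 0.66 with 75th percentile scaling and 0.76 without normalisation, and 0.77 to 0.80 with 1 array left out. With normexp refitted without 2 spots of high local background on 1 array, an alternative chosen after seeing the data, it was 0.67, for 132 probes.

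The limma threshold was passed by 39 of the 170, beside 1.28% of all probes. The count was 153 with no fold limit and an adjusted p of 0.05, where 12.9% of all probes were lower. It was 122 with an offset of 16, 117 with an offset of 0, and 11 to 33 with 1 array left out. It was 11 and 21 without wild-type replicates 3 and 4, and 16 and 17 without *vhl* mutant replicates 3 and 4. For the offsets and the left-out arrays the share over all probes was not computed, so nothing about the 170 is read from these counts. With the replicate number as a block, limma called 0 of the 170, and also 0 lower and 0 higher of all 41031 probes. In that fit wild-type replicate 2 and *vhl* mutant replicate 1 had no partner of the same number. Only replicates 3 and 4 informed the contrast, so the lack of calls decides nothing. At an unadjusted p under 0.05 in the same fit, 151 of the 170 and 18.6% of all probes were lower. Deviations from the group means correlated at -0.030 for replicates 3 and at 0.012 for replicates 4. Between unlike numbers they correlated at 0.037 (wild-type 3 with *vhl* mutant 4) and -0.036 (wild-type 4 with *vhl* mutant 3). No pairing by number was seen, but the labels do not say whether pools of the same number share a clutch.

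Of 300 differences of single named probes under 15 settings, 77 moved by more than the spread between replicates, and the smallest was 0.32. None changed sign (0), but the rule had already taken only probes higher in wild-type, so a change of sign was hardly possible. Under the 17 settings that kept the flag and the limit or loosened it, 100 of the 170, and 17 of the 19 named genes, stayed in the set each time. The normexp fit on the mean signal was not run. At these levels the signal is close to background. Slide and genotype cannot be told apart.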
